A study of Mus musculus with 2 samples.

Results

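Genes of DNA replication and mitosis were examined in wild-type mouse B cells carrying surface IgM and IgD, sorted by flow cytometry from spleen. The set holds 39 genes given by symbol, with no rule on their signal, and its members were all probe sets that name 1 of these symbols alone. Of the 39 genes, 38 were measured, by 72 probe sets, among 12393 genes and 20380 probe sets in all. No probe set naming Ccnb1 alone, the gene of cyclin B1, was found, and it was not analysed here. The members were divided by textbook role into 19 genes of DNA replication, 18 of mitosis (17 measured), and 2 genes that control entry into and progress through S phase, E2f1 and Chek1.

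The series was designed to set B cells lacking serum response factor, a transcription factor, against wild-type cells. The 2 arrays used here are both wild type with no genetic modification, and arrays of deficient cells were not analysed here. The labels give no age, sex or strain, nor whether each array stands for its own mouse or for pooled animals, so the spread between the arrays may be technical. The arrays are called replicate 1 and replicate 2 by the order of their accessions. With 1 group of 2 arrays no test was possible.

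A cell that leaves quiescence first loads the MCM helicase, a ring of 6 related subunits encoded by Mcm2 to Mcm7, onto origins of replication. In S phase the helicase is activated, the sliding clamp PCNA holds the polymerases on DNA, and ribonucleotide reductase and thymidylate synthase supply nucleotides. Cyclin B with CDK1 then drives mitosis, in which Polo-like and Aurora kinases, kinesin motors and the spindle checkpoint separate the chromosomes. Replication genes are typical targets of E2F factors in late G1, whereas mitotic genes are typically controlled by the DREAM and MYB-MuvB complexes through a CHR element, often beside CCAAT boxes. Mature splenic B cells are mostly resting until antigen stimulates them.

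Because the members form classes that are known to be controlled by different promoter elements, RefSeq promoter windows of 300 bases, from 250 before to 50 after the start of transcription, were read for 33 of the 39 genes. The windows shown belong to Pcna, the replication gene with the highest signal, to Mcm5, to Cenpa, which was the exception among mitotic genes, and to Ccnb2 and Cdk1, mitotic genes with low signals. Each runs 5′ to 3′ along the strand of its gene, and capitals mark every match, on either strand, to the motifs searched, which were the E2F words TTTCCCGC, TTTCGCGC, TTTGCCGC and TTTGGCGC, the CHR word TTTGAA, and CCAAT.
Pcna (GRCm38.p6, chr2:132253131-132253430, minus strand): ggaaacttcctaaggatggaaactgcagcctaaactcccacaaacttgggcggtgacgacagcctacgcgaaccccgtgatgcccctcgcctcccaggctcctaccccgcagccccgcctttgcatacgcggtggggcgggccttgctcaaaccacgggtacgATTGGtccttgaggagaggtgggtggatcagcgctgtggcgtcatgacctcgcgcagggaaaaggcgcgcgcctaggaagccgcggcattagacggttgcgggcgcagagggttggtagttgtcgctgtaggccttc
Mcm5 (GRCm38.p6, chr8:75109259-75109558, plus strand): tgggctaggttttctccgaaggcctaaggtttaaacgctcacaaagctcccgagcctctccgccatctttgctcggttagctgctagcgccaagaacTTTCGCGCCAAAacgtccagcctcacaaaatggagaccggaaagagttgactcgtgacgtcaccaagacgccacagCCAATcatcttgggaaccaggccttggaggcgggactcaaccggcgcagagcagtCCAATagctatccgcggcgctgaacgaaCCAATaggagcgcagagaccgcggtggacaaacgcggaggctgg
Cenpa (GRCm38.p6, chr5:30666636-30666935, plus strand): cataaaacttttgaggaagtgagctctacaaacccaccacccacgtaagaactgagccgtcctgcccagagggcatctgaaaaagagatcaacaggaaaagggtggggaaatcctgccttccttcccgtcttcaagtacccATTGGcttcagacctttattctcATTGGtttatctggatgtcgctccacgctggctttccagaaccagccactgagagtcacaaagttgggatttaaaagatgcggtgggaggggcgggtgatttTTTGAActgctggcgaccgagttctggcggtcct
Ccnb2 (GRCm38.p6, chr9:70421505-70421804, minus strand): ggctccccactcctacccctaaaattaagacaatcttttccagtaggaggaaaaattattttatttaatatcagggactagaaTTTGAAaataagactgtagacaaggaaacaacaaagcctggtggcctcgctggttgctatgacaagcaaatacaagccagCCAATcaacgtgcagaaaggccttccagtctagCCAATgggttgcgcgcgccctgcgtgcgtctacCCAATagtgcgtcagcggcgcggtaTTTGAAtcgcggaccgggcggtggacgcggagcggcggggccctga
Cdk1 (GRCm38.p6, chr10:69352863-69353162, minus strand): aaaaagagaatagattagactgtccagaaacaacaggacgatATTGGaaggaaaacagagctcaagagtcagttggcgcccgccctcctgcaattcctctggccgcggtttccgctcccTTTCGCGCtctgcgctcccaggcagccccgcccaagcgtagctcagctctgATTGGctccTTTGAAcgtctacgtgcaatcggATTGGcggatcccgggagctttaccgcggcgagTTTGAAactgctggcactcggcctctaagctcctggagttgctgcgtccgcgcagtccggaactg

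In the Mcm5 window 2 overlapping E2F matches began at bases 98 and 102, and 3 CCAAT boxes followed. The Cenpa, Ccnb2 and Cdk1 windows each held the CHR word, at bases 267, at 84 and 255, and at 180 and 236 in turn. Each of these 3 windows also held CCAAT on 1 strand or the other. The Pcna window held 1 CCAAT match, on the reverse strand, and none of the E2F words as spelled here. An E2F word was found in 8 of 21 windows of replication genes (38.1%) and in 1 of 14 windows of mitotic genes (7.14%), that of Cdk1, against 744 of 32851 windows of all genes (2.26%). The CHR word was found in 3 of 21 replication windows (14.3%) and in 11 of 14 mitotic windows (78.6%), against 17.9% of all windows. CCAAT was found in 61.9% of replication windows and 92.9% of mitotic windows, against 37.4% of all windows. The matches describe letters in these windows, and they are neither binding sites nor measurements in these cells.

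**Figure D1:**
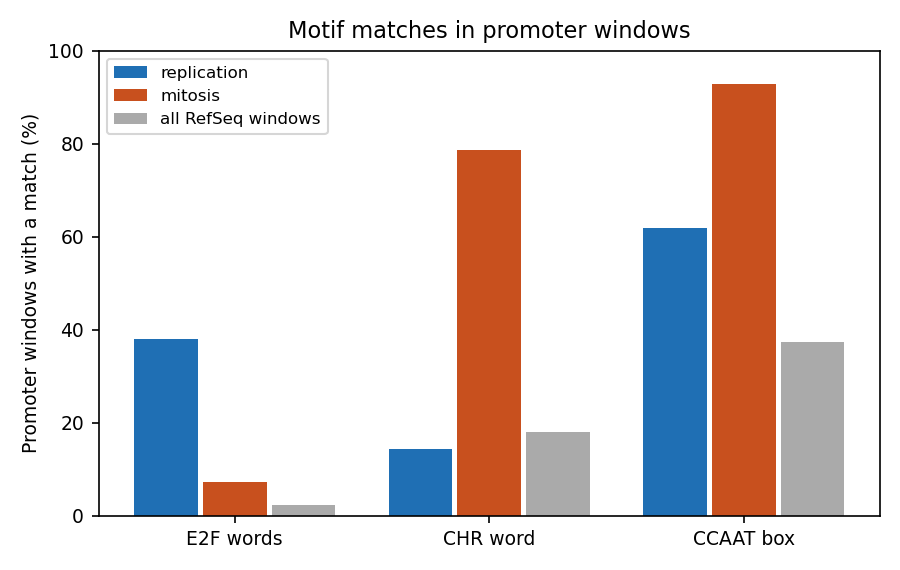
Share of RefSeq promoter windows (percent, y axis, from 0) that hold an E2F word, the CHR word or a CCAAT box, for 21 windows of replication genes, 14 windows of mitotic genes and 32851 windows of all genes. E2F words were found in 38.1% of replication windows and the CHR word in 78.6% of mitotic windows.

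The measurements were fluorescence signals of single arrays in the units of MAS5, which condenses the probes of a probe set to 1 value on a linear scale. A gene was counted as above the floor if at least 1 of its probe sets exceeded, on both arrays, the 90th percentile of a background set. This set comprised 54 genes typical of other organs, such as liver, muscle, testis or lens, with 84 probe sets. This floor was 146 on replicate 1 and 102 on replicate 2. Where a gene is given by 1 value for each array, it is that of its brightest probe set, the one with the highest mean log2 signal. Probes differ in affinity, so signals of different genes were not compared as amounts of RNA, and a gene under the floor may be expressed at a level the array did not resolve. Array signals of a population also cannot tell apart few cells with much of an mRNA from many cells with little.

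The sorted cells carried the B cell programme, with 9 of 10 measured B cell genes above the floor on both arrays, Pax5 being the exception at 21.5 and 15.6. Their signals did not all agree between the arrays. Of the 10, 2 were over 2-fold higher on replicate 1, Cd79a at 2931 and 192 and Cd74 at 15711.6 and 7421.5. In the other direction 1 was over 2-fold higher on replicate 2, Cr2 at 940 and 2275, and 7 were closer than that. Among markers of other cells that might divide or contaminate the sort, Bcl6 was the single germinal centre gene above the floor (1 of 4), Irf4 and Xbp1 the plasma cell genes (2 of 5), Ank1 and Tfrc the erythroid genes (2 of 7), Zap70 the T cell gene (1 of 8), and 0 of 7 B precursor genes passed. These shares, 25%, 40%, 28.6%, 12.5% and 0% in turn, stand beside 31.8% of all genes. The erythroid regulator Gata1 exceeded the floor on replicate 1 alone, at 291 and 40.6, as did Epor of the same list, at 156 and 33.8. So did Prdm1 of plasma cells, at 222 and 42.2. The summed erythroid signal was 1029 on replicate 1 and 515 on replicate 2. That of the genes of other organs, used below for the background, was also lower on replicate 2, at 4286 and 2725. Jchain of plasma cells passed on replicate 2 alone, at 94.7 and 454, as did the precursor genes Il7r, at 116 and 131, and Igll1, at 107 and 139. Any part of these markers' cells in the members' signals was not tested. The 3′ to 5′ signal ratio, a measure of RNA integrity, was 3.57 on replicate 1 and 8.15 on replicate 2 for Actb, and 1.31 and at least 8.07 for Gapdh.

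Replication genes lay above the floor more often than mitotic genes. Of 19 replication genes, 8 passed it on both arrays (42.1%), namely Pcna, Fen1 and all 6 MCM genes. Of 17 measured mitotic genes, 1 was, Cenpa (5.88%), and of E2f1 and Chek1, 0 of 2. Over all 12393 genes the share was 31.8%, and over the genes of other organs it was 5.56% (3 of 54). The replication genes gave a share 36.2 percentage points above that of the mitotic genes and 10.3 points above that of all genes. The share of the mitotic genes lay close to that of the genes of other organs. The floor was set from probe sets of those same other-organ genes, so their share was largely fixed by the cut. The excess over all genes rests on counting a gene by any of its probe sets, since by probe set the shares were 26.3% for replication (10 of 38), 3.57% for mitosis (1 of 28) and 25.9% for all genes. When all probe sets of a gene had to pass, the shares were 15.8%, 5.88% and 17.4%, and the difference between replication and mitosis was 9.91 points. Without probe sets ending in _x_at or _s_at they were 21.1%, 6.25% and 29.9%, and the difference was 14.8 points. On single arrays the counts were 9 of 19 replication genes and 3 of 17 mitotic genes on replicate 1, and 12 of 19 and 2 of 17 on replicate 2. The corresponding shares of all genes were 45.3% and 44.1%.

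**Figure D2:**
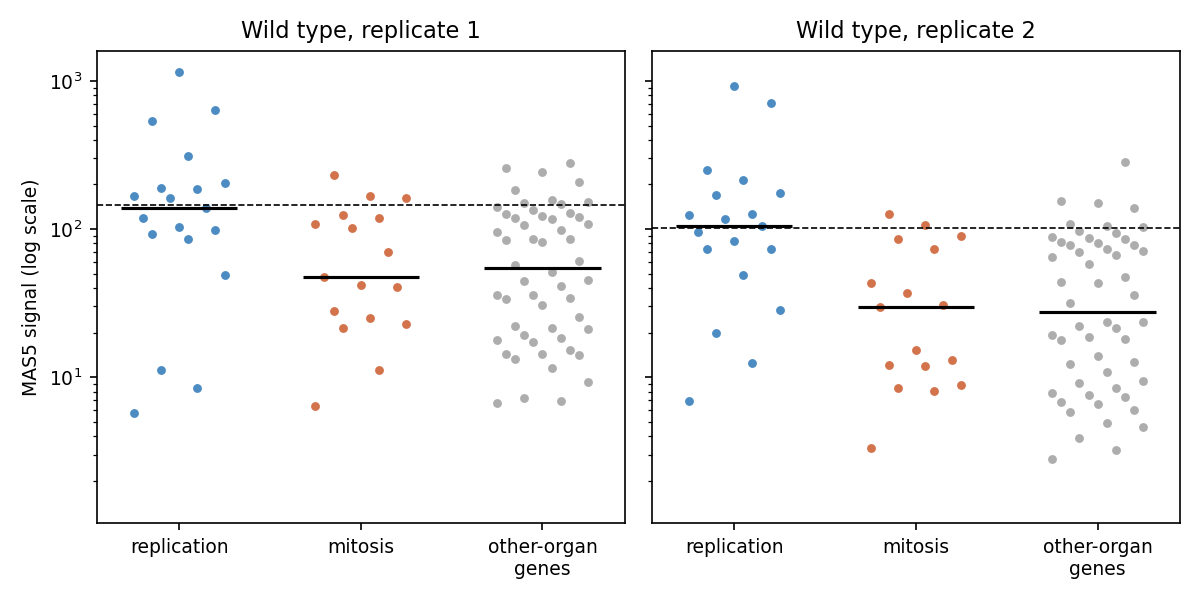
MAS5 signal (log scale) of the brightest probe set of each gene on each wild-type array, for 19 replication genes, 17 mitotic genes and 54 genes restricted to other organs. Bars are medians and the dashed line is the floor of the array. Replication genes had medians of 140 and 105 on replicates 1 and 2, and mitotic genes 47.3 and 29.8.

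The order of the classes did not hinge on where the floor was set between its 50th and 99th percentile. At the 50th percentile 78.9% of replication genes and 47.1% of mitotic genes passed it on both arrays, against 67.4% of all genes. At the 95th percentile these shares were 31.6% and 0%, against 25.2% of all genes. At the 99th percentile 2 replication genes remained, or 10.5%, and 0 mitotic genes, against 12.5% of all genes. Counted by any probe set, replication genes stood above all genes at every floor tried except the highest, by at most 17.3 points, an excess that the count by probe set did not show at the 90th percentile. Mitotic genes stood below all genes at each floor.

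**Figure D3:**
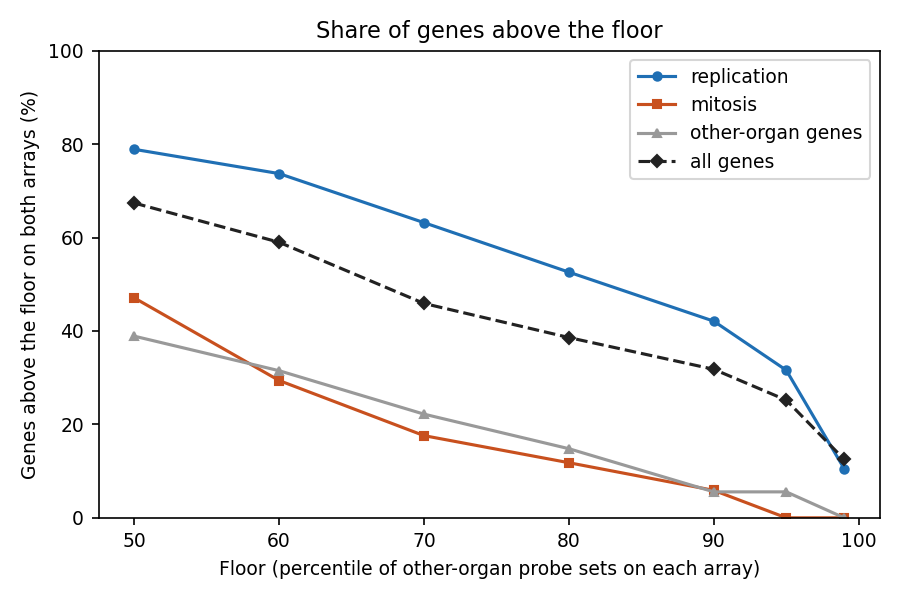
Share of genes above the floor on both arrays (percent, y axis) as the floor is raised from the 50th to the 99th percentile of probe sets of other-organ genes (x axis), for 19 replication genes, 17 mitotic genes, 54 other-organ genes and all 12393 genes. The replication line lies above the mitotic line at every floor, 78.9% against 47.1% at the lowest and 10.5% against 0% at the highest.

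The MCM helicase genes were the only role group of more than 1 gene in which every gene passed the floor on both arrays. Over all genes 31.8% passed. The role groups were drawn up after the values were seen. Mcm7 gave 538 and 705 on replicates 1 and 2, a mean of 621 ± 118 (SD, n = 2). Mcm4 gave 311 and 175, Mcm5 gave 191 and 169, and Mcm2 gave 186 and 214. These genes reached at least 1.27 times the floor on each array. Mcm6 gave 167 and 116, and Mcm3 gave 162 and 105. Mcm3 was the closest to the floor of the MCM genes, exceeding it by 2.88% on replicate 2. By its brightest probe set, no MCM gene differed over 2-fold between the arrays as deposited or after quantile normalization. After centring on the array median 1 was over 2-fold higher on replicate 2. As deposited 4 of the 6 were lower on replicate 2, against 7216 of all 12393 genes. After quantile normalization these counts were 4 and 6232, and after centring 1 and 5113. Centring shifts every gene alike and moves the median log2 difference of all genes from -0.31 to 0.32.

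The probe sets of the MCM genes did not all pass. Of 16 probe sets, 8 exceeded both floors, and Mcm3, Mcm4, Mcm6 and Mcm7 each had some that were and some that were not. Mcm3 passed by 1 of 5 probe sets, and the others gave signals such as 198 and 39.8, or 63.0 and 93.1, on replicates 1 and 2. The second probe set of Mcm4 gave 48.8 and 250. The dimmest of the 4 probe sets of Mcm7 gave 54.6 and 79.4. Both probe sets of Mcm2 passed, the second at 158 and 147, and the only probe set of Mcm5 did. The probe sets by which Mcm3, Mcm6, Mcm7 and Fen1 passed end in _s_at or _x_at, classes that can hybridise with related transcripts. Without those classes, and with the floor recomputed, 4 replication genes passed on both arrays, Pcna, Mcm2, Mcm4 and Mcm5.

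**Figure D4:**
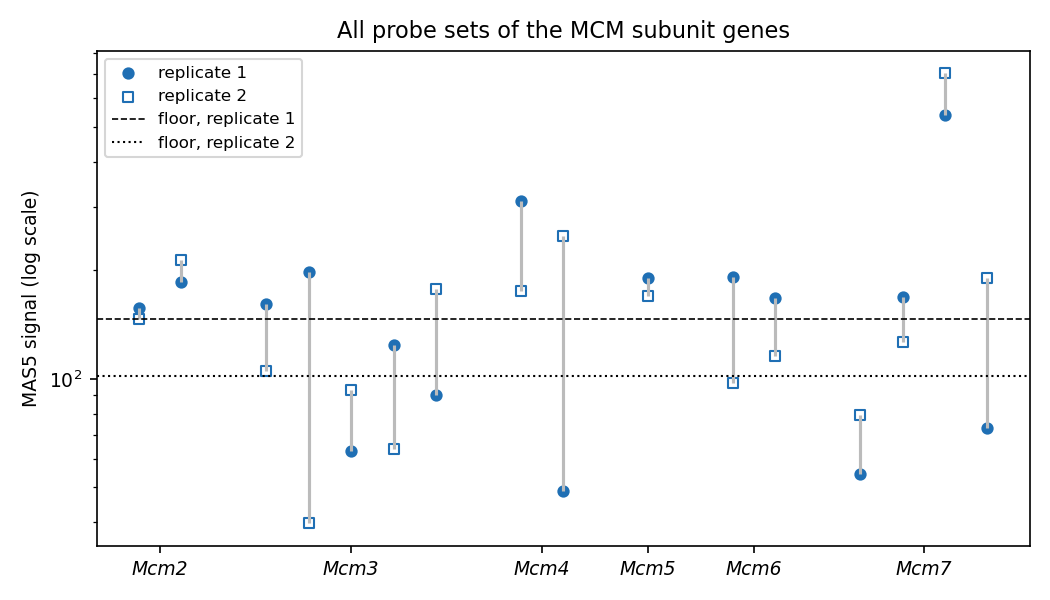
MAS5 signal (log scale, y axis) of all 16 probe sets of the 6 MCM genes (x axis) on replicate 1 (filled circles) and replicate 2 (open squares), with a grey line joining the arrays. The dashed and dotted lines are the floors of replicate 1 and replicate 2, and 8 probe sets exceed both floors.

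Of the members, 3 encode proteins that load or activate the helicase, and none of these passed the floor on both arrays. The share over all genes was 31.8%, from which a group of 3 genes cannot be set apart. Cdc6, whose product loads the MCM ring, gave 8.4 and 6.9. Cdc45, part of the active helicase, gave 11.1 and 19.9. Gins1, of the GINS complex that joins it, gave 49.2 and 127 and passed the floor of replicate 2 alone. Each was measured by 1 probe set. Other genes of helicase loading and activation did pass, Cdt1 among them, as the wider list of replication genes shows.

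At the replication fork Pcna, the gene of the sliding clamp, had a signal of 1146 and 932, a mean of 1039 ± 151 (SD, n = 2), by its only probe set. It reached at least 7.83 times the floor of each array, the most of any member. The clamp loader genes among the members, Rfc4 and Rfc3, were under the floor on both arrays by their brightest probe sets, Rfc4 at 98.6 and 72.8, and Rfc3 at 93.1 and 28.2. Their second probe sets gave 4.7 and 111 for Rfc4 and 5.5 and 97.4 for Rfc3, with the 111 of Rfc4 above the floor of replicate 2, and the probe sets of each gene ran opposite ways between the arrays. Prim1, the catalytic subunit of primase, gave 140 and 124 and missed the floor of replicate 1 by less than 5%. Pola1, the catalytic subunit of the polymerase that starts each fragment, gave 104 and 49.3.

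Fen1 and Lig1 act on the lagging strand, where the flap endonuclease trims and DNA ligase I seals the fragments. Fen1 gave 640 and 249 on the arrays, while by its other probe set it gave 131 and 66.9, under both floors. It was the 1 of the 8 replication genes above the floor that differed over 2-fold between the arrays, being 2.57-fold higher on replicate 1. Among the 3946 genes of the whole array that passed both floors, 9.38% differed this way and 15.3% were over 2-fold higher on replicate 2. Lig1 gave 119 and 83.7, under the floor on both arrays.

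The nucleotide supply genes were not above the floor on both arrays, 0 of 3, against 31.8% of all genes. A group of 3 genes is too small to be set apart from that share. Rrm1, the large subunit of ribonucleotide reductase, gave 206 and 12.4 by 1 probe set and 16.6 and 106 by the other, each above the floor of a different array. Rrm2, the small subunit that is made in S phase, gave 85.2 and 95.4 by the brightest of 3 probe sets and at most 33.4 by the others. Tyms, thymidylate synthase, gave between 5.3 and 73.5 over its 3 probe sets. E2f1, a transcription factor that activates replication genes, gave 119 and 105 by its brightest probe set and 191 and 5.1 by its other, each above the floor of a different array. Chek1, a checkpoint kinase of S phase, gave between 3.1 and 63.3 over 4 probe sets.

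**Figure D5:**
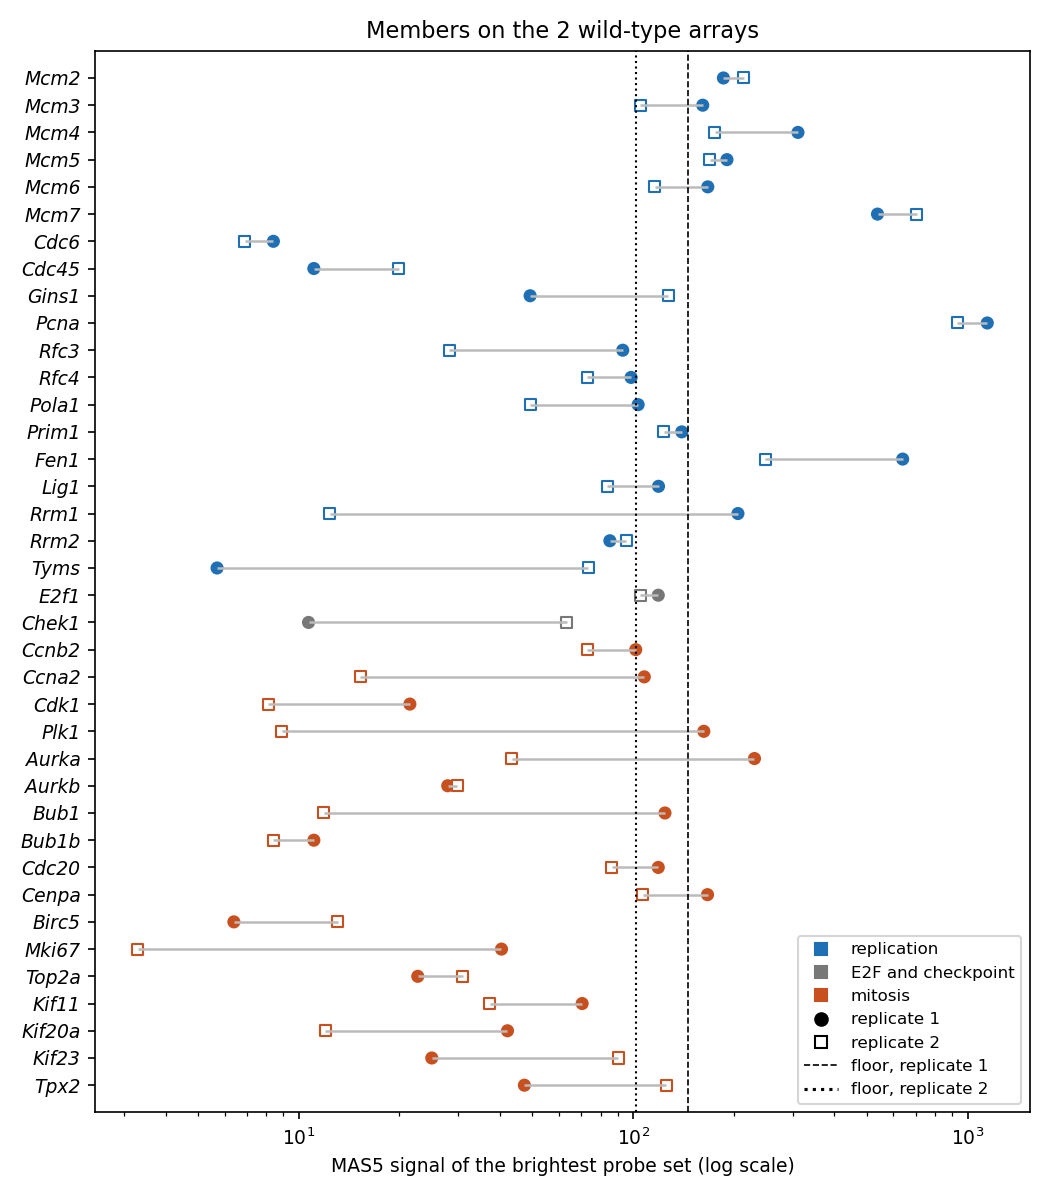
MAS5 signal (log scale, x axis) of the brightest probe set of the 38 measured genes on replicate 1 (filled circles) and replicate 2 (open squares), in order of role from the MCM helicase at the top to the spindle motors at the bottom. Blue marks replication, grey E2F and checkpoint, and orange mitosis. Dashed and dotted lines are the floors of replicates 1 and 2. Pcna, at 1146 and 932, lies farthest to the right.

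Cdk1 and the measured cyclin genes, Ccnb2 and Ccna2, were under the floor on both arrays. Cdk1, the mitotic kinase, gave 21.5 and 8.1, and Ccnb2, one of its B-type cyclins, gave 102 and 72.8. Ccna2, cyclin A2 of S phase and G2, gave 108 and 15.3 by the brighter of its probe sets and 45.2 and 31.6 by the other. Among the mitotic kinases Plk1 gave 163 and 8.9 and Aurka 231 and 43.4, each above the floor of replicate 1 and well under that of replicate 2. Aurkb gave 27.9 and 29.8 by its brighter probe set. These single-array signals of Plk1 and Aurka were each measured by 1 probe set.

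The spindle checkpoint genes Bub1 and Bub1b, and Cdc20, an activator of the anaphase-promoting complex, were under the floor on both arrays. Bub1 gave 125 and 11.9, Bub1b 11.1 and 8.4, and Cdc20 119 and 86.3, the last by the brightest of 3 probe sets. Of the kinesin genes, Kif11 gave 70.4 and 37.2 and Kif20a 42.1 and 12.0. Kif23, needed for cytokinesis, gave 25 and 90.4 by its brightest probe set and 25.1 and 5.3 by a second one. Tpx2, an activator of Aurora A on the spindle, gave 47.3 and 126 by its brighter probe set, which passed the floor of replicate 2 alone. Its other probe set gave 11.7 and 6.7, under both floors.

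Cenpa, the histone H3 variant of centromeres, was the mitotic gene above the floor on both arrays, with 167 and 107, a mean of 137 ± 42.4 (SD, n = 2). It exceeded the floor of replicate 2 by 4.74%, so it lay at the edge of the threshold, as did Prim1 on the other side. Among genes often used as proliferation markers, Pcna and Mcm2 passed both floors, whereas Mki67, Top2a and Birc5 did not. Mki67, which encodes Ki-67, gave 40.4 and 3.3, Top2a, topoisomerase II alpha, 22.7 and 30.9, and Birc5, survivin, 6.4 and 13.1. For comparison, the genes of other organs had medians of 54.4 and 27.7 on replicates 1 and 2.

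Differences between the arrays were wide, counted here over genes above and under the floor together. Of 19 replication genes, 2 exceeded 2-fold in favour of replicate 2 and 4 in favour of replicate 1, with 13 closer than that. Of 17 mitotic genes, 3 exceeded it in favour of replicate 2 and 7 in favour of replicate 1. The shares of all genes were 18.4% in favour of replicate 2 and 33.3% in favour of replicate 1. Among genes above both floors they were 15.3% and 9.38%. The median log2 difference, replicate 2 minus replicate 1, was -0.30 for replication genes, -0.64 for mitotic genes and -0.31 for all genes. Relative to all genes it was 0.01 for replication and -0.33 for mitosis. Of the 22 members with more than 1 probe set, 5 had probe sets over 2-fold apart in opposite directions, namely Chek1, Kif23, Rfc3, Rrm1 and Tyms. The like share over all genes was not computed, so this count is not read as a trait of the members. The higher 3′ to 5′ ratios on replicate 2 stand beside these differences, and their part in them was not tested.

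Other genes of the same processes, listed from textbook knowledge, divided in a like way. Since these lists were chosen with earlier results of these data known, they are no independent check of the division. Of 34 other replication genes 16 passed both floors (47.1%), and of 41 other mitotic genes 5 did (12.2%), against 31.8% of all genes. By probe set these shares were 36.2%, 7.69% and 25.9%. Cdt1, which loads the MCM ring with Cdc6, gave 2039 and 2172, a mean of 2106 ± 94.0 (SD, n = 2). Rpa1, of the single-strand binding complex, gave 984 and 3285, Pold1, of polymerase delta, 574 and 1224, and Rfc2, of the clamp loader, 342 and 621. Dnmt1, the maintenance DNA methyltransferase, gave 214 and 606, and Rfc1 177 and 457. The origin recognition genes Orc2, Orc3, Orc4 and Orc5, and Cdc7 and Dbf4, which form the kinase that activates the helicase, also passed and were named after their values were seen. The mitotic genes that passed were Pttg1, the gene of securin, at 2198 and 4393, Bub3, of the spindle checkpoint, at 361 and 1247, Smc4, of condensin, at 490 and 826, Racgap1 at 158 and 138, and Kif22 at 185 and 109. The values of Pttg1, Bub3, Kif22, Pold1 and Dnmt1 are those of probe sets ending in _s_at or _x_at, which can hybridise with related transcripts. Several of the genes named here also act outside division, Bub3, Dnmt1 and Rpa1 among them.

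The promoter words, chosen after the signals were seen, were set beside the signals, and a link between them was not tested. Of the 8 replication genes with an E2F word in a window, 4 passed both floors, Mcm3, Mcm5, Mcm6 and Mcm7, and 4 did not, Cdc6, Lig1, Pola1 and Rfc3. Mcm3, Mcm6 and Mcm7 passed only by probe sets ending in _s_at or _x_at. Of the 17 replication genes with a window, 7 were above the floor, against 31.8% of all genes. Of the 11 mitotic genes with the CHR word 1 was above the floor, Cenpa, whose window is shown with those of Ccnb2 and Cdk1.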

How the data were processed

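The deposited table holds signal intensities of 2 arrays for 22690 probe sets, 1 column for each sample, on a linear scale. The authors made them with MAS5, per the submitters' processing notes. Its version and parameters are not given in the sources used here. Per the labels' protocols, biotinylated cRNA was made from 6 µg of total RNA. With 2% of values trimmed from both ends, the means were 150.0 and 150.1, which points to scaling of each array to a shared target, while the medians were 103 and 66.6 on replicates 1 and 2. Such scaling multiplies the background of a dim array too. Precision is limited by the number of arrays.

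The 64 control probe sets were left out of gene results. Of the other 22626, 20380 named 1 gene in the platform annotation, 691 several and 1555 were unnamed here. Promoter windows came from RefSeq on GRCm38.p6 and matched 33 of 39 members by symbol. Mcm4, Gins1, Ccna2, Aurkb, Kif20a and Tpx2 had no window. Differences were taken on the log2 scale as replicate 2 minus replicate 1, with no normalization added. Replication and mitosis were compared by shares above the floor, with no p-value, since 2 arrays of 1 group allow no test and the members were chosen as sets. The members and lists were chosen with earlier results of these data known, and the role groups were drawn up after the values were seen. All 38 measured members are named. Of the other replication and mitotic genes, the 6 brightest above the floor were to be named, and of marker lists those above it, with the highest where none was. Pax5, Gata1, Epor, Prdm1, Jchain and Igll1 were added, and Cd79a, Cd74 and Cr2 singled out from the B cell genes, after their values were seen. The motif words were chosen after the signals were seen.

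The alternatives were floors at the 95th percentile and at the array median, the brightest probe set or all probe sets above the floor, no probe sets ending in _x_at or _s_at, quantile normalization, median centring, log2(signal + 32), the mean over probe sets, members above the floor only, another division of the members, and leaving out each array. A floor without Mbp, a gene with transcripts in blood cells, was added after seeing the data. Functions were tested on simulated data. Python 3.11.15, numpy 2.4.6, pandas 2.3.3 and matplotlib 3.10.9 were used.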

Additional observations from a re-analysis of the deposited data

How the results depend on the processing

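The count of replication genes above the floor was 8 of 19, and it was 3 when all probe sets of a gene had to pass and 4 of 19 without probe sets ending in _x_at or _s_at. In both cases fewer probe sets could carry a gene past the floor, by construction. The difference in share between replication and mitotic genes, 36.2 percentage points, became 9.91 and 14.8 points under these settings and kept its direction under all 10 alternatives. Leaving out each array gave 9 to 12 replication genes, 2 to 3 mitotic genes and a difference of 29.7 to 51.4 points. The mitotic count of 1 was 0 with a floor at the 95th percentile and 2 with a floor at the array median. The median log2 difference of replication genes, -0.30, turned to 0.061 after quantile normalization and 0.34 after median centring, which moved the median of all genes to -0.01 and 0.32. That of mitotic genes, -0.64, was -0.0081 after median centring, which shifts every gene alike. Relative to all genes it was -0.33 both before and after centring. With the mean over probe sets the mitotic median was -1.41, against -0.39 for all genes, and the cause of that move was not tested. No paired analysis was possible because there is 1 group. Cenpa, Mcm3 and Prim1 lay within 5% of the floor on 1 array, so signal over background limits their calls.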

Other observations

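A probe set annotated to both Tyms and its pseudogene Tyms-ps, and so outside the members, gave 180 and 88.4 on replicates 1 and 2, above the floor of replicate 1 alone. The 9 probe sets of transcripts spiked in before hybridization were all brighter on replicate 1, by 3.39-fold to 10.2-fold.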
